A study of Mus musculus with 35 samples.

Results

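The genes described here carry names of the RIKEN 1700 clone series, which was made from adult mouse testis, and most of them still have no name of their own. They were selected on their raw counts: a gene was taken if its name followed the 1700-series pattern and if it had at least 100 counts in at least 3 of the 12 spermatocyte and round spermatid libraries. Of 366 such names among the 24411 genes of the count tables, 321 met that rule and 45 did not. RefSeq (GRCm38.p6) classed 189 of the 321 as long noncoding RNA (lncRNA) genes, 119 as protein-coding genes and 12 as pseudogenes, and 1 gene, 1700024F13Rik, could not be matched. They lay on 21 chromosomes, with 11 on the X chromosome. The median total exon length per gene was 726 nt for the lncRNA genes and 1363 nt for the protein-coding genes. The threshold was reached in libraries of all 4 groups by 260 genes, and 11 genes reached it in control round spermatids alone, so these 11 had to be high there. Because the rule used the counts of these 12 libraries, numbers of 1700-series genes called in them are given as a description beside the share of all genes called, with no test of the list. The chromatoid body libraries played no part in the count rule.

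The samples were germ cells of adult mice on a mixed C57Bl/6J and SV129 background. In the conditional knockout (cKO) both Smg6 alleles were floxed and Ngn3Cre was present, Smg6(fx/fx);Ngn3Cre+, so that the deletion was driven in the male germ line. The controls (CTRL) were littermates with 1 or 2 floxed alleles and no Cre, Smg6(fx/fx);Ngn3Cre– or Smg6(fx/wt);Ngn3Cre–, and so had Smg6 intact. Polyadenylated RNA was sequenced from enriched spermatocytes (Spc) and enriched round spermatids (RS), with 3 libraries of each genotype and cell type, and total RNA from chromatoid bodies (CB) isolated with an antibody to DDX4, with 4 CTRL and 3 cKO libraries. The chromatoid body material was pooled from several mice, and the sources differ on how many testes went into each cell sample, so the p-values measure only the spread between these libraries.

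SMG6 is the endonuclease of nonsense-mediated RNA decay. Round spermatids are the haploid cells formed by meiosis, and they transcribe a large set of genes for the acrosome, the flagellum and the repackaging of chromatin before transcription stops in elongating spermatids. Many genes of that programme have short promoters that carry a cyclic AMP response element, the site bound by CREM, the best known activator of spermatid genes. The chromatoid body is a cytoplasmic granule of round spermatids that gathers RNA, the helicase DDX4 and components of the piRNA pathway.

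The promoters are shown first because a stretch of 8 letters recurred in them. RefSeq promoter windows of 300 bases, from 250 bases before to 50 bases after the start, were found for 256 of the 321 genes, 279 windows in all. The letters TGATGTCA, or TGACATCA when read on the other strand, are a close relative of the palindromic element TGACGTCA. They were searched for after they had been seen between 1700027A15Rik and its neighbour Tnp1 and before 1700019O17Rik (Tex44), so their count is a description. In the sequences here, taken from RefSeq GRCm38.p6 and written 5′ to 3′ in the direction of the 1700-series gene, capitals mark that stretch. The first spans the 136 bases between the starts of 1700027A15Rik and Tnp1 (chr1:73015900-73016035, plus strand), which are transcribed away from each other. The next 4 are the 100 bases before the start of genes named below, and were picked because they hold the stretch. They lie at chr6:32050188-32050287, chr1:86426229-86426328, chr13:113135976-113136075 and chr4:39450193-39450292, all on the plus strand. 1700047L14Rik, among the most reduced genes in RS, holds the stretch 7 bases before its start and is not shown. Windows of 1700034I23Rik and 1700019G17Rik, also named below, hold no match and are not shown. The last 2 are shown because they hold no match: the 100 bases before 1700009J07Rik (chr10:77893320-77893419, plus strand), a lncRNA with one of the largest decreases, and before 1700016L04Rik (chr10:14705509-14705608, plus strand), the lncRNA with the largest increase in round spermatids.
1700027A15Rik: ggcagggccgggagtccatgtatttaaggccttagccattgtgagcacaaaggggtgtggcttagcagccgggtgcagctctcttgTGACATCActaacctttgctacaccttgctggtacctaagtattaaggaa
1700012A03Rik: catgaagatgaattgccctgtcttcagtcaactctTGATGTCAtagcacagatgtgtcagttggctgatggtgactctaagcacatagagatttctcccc
1700019O17Rik: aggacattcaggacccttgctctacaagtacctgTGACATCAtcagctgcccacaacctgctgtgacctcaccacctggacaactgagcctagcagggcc
1700084D21Rik: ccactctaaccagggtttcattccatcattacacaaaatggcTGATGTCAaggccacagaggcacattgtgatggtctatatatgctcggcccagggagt
1700009N14Rik: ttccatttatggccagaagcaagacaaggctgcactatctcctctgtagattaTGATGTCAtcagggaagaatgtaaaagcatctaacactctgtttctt
1700009J07Rik: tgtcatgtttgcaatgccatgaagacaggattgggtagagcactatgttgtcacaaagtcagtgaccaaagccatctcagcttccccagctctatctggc
1700016L04Rik: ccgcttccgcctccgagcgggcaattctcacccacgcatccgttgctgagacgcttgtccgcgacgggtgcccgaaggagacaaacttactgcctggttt

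TGATGTCA stood, on either strand, in 41 of the 279 windows (14.7%), against 1189 of all 32851 RefSeq windows (3.62%). In windows of all genes that met the same count rule the share was 3.04%. The palindrome TGACGTCA stood in 1.79% of the 1700-series windows and of all windows, and in 3.04% of those of genes that met the same count rule. Among the windows of 1700-series genes that were higher in CTRL RS than in CTRL Spc the share with TGATGTCA was 21.2% (36 of 170), against 4.59% (5 of 109) for the others. Among other genes that met the same count rule it was 8.78% (186 of 2118) for those higher in CTRL RS and 1.72% (192 of 11146) for the rest. In 20 of the 41 windows (48.8%) the stretch began 40 to 80 bases before the start, as in the first 5 sequences. Over all RefSeq windows with the stretch that share was 33.4%, and over those of other genes that met the count rule and were higher in CTRL RS it was 53.8% (100 of 186). The letters GTTGCCA, a core of the motif read by RFX factors, stood in 12.5% of the 1700-series windows, 4.38% of all windows and 4.8% of windows of genes that met the same count rule. TATAAA stood in 11.5%, 13.6% and 7.6%. The median number of CpG dinucleotides per window was 5 for the 1700-series genes, 7 for all windows and 19 for all genes that met the same count rule. For other genes that met the count rule and were higher in CTRL RS, GTTGCCA stood in 7.18% and TATAAA in 10.5% of windows. Their median CpG number was 6. A match is a stretch of letters and was not tested for binding.

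Total counts per library ran from 38129415 to 49940226 in Spc and RS and from 3965541 to 16699210 in CB. Smg6 as a gene was not past the threshold in any comparison of genotypes (log2 fold change 0.22 in Spc, 0.05 in RS and -0.06 in CB, smallest adjusted p = 0.352 with edgeR's quasi-likelihood test), and a count over the whole gene does not measure a deletion within it. The 10 late spermatid markers, protamine, transition protein and sperm tail genes among them, were all lower in cKO at an adjusted p of 0.05 or less in Spc, RS and CB. Their summed share of counts was 2.25% to 2.79% in CTRL RS, 0.218% to 0.233% in cKO RS, 0.406% to 0.79% in CTRL Spc and 0.0468% to 0.147% in cKO Spc, and none was at 0. Of 10 spermatid markers, 10 were lower in RS, 10 in CB and 2 in Spc (median log2 fold changes -1.64, -1.20 and -0.73). At the same adjusted p, 2359 of 17321 genes were lower in Spc, 5726 of 17492 in RS and 2608 of 14051 in CB. The paper reported that cKO testes had far fewer round spermatids, no normal ones at late steps and no elongating spermatids. The RS fractions of the 2 genotypes therefore need not hold the same stages. Fewer cells of a stage and less RNA per cell cannot be told apart in such samples, and the part of late spermatid RNA in the values given here was not tested.

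The 321 genes together took 2.81%, 2.67% and 2.78% of all counts in the 3 CTRL RS libraries and 1.66%, 1.8% and 1.71% in the cKO RS libraries. In Spc their share was 1.96%, 1.65% and 1.74% in CTRL and 1.57%, 1.6% and 1.45% in cKO. In CB it lay between 0.558% and 0.883% in CTRL and between 0.299% and 0.455% in cKO. The genotypes did not overlap in RS, Spc or CB. The highest of the 4 group means in cells was that of CTRL RS for 257 genes, of cKO Spc for 38, of CTRL Spc for 14 and of cKO RS for 12.

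**Figure D1:**
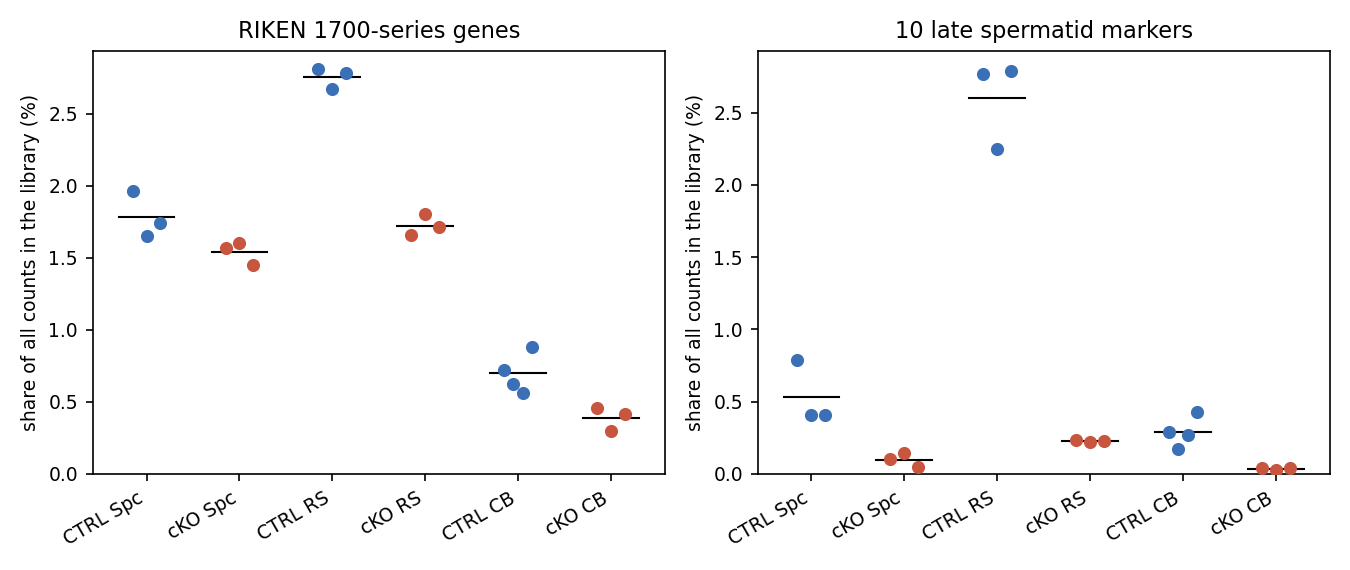
Share of all counts in each library (%, linear axis) taken by the 321 RIKEN 1700-series genes (left) and by 10 late spermatid markers (right). Points are libraries (blue CTRL, red cKO) and lines are group means; the 1700-series genes lie between 2.67% and 2.81% in CTRL RS and between 1.66% and 1.8% in cKO RS.

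Round spermatids of CTRL mice were compared with CTRL spermatocytes to ask when in differentiation these genes reach their highest RNA level. Differences here and later are log2 fold changes from edgeR's quasi-likelihood test, and a gene was called when its log2 fold change was at least 1.5 in size with an adjusted p of 0.05 or less. Of the 321 genes, 188 were higher in CTRL RS and 10 were lower, where 17.9% and 15.6% of all genes tested were called higher and lower. With library sizes left unadjusted 109 were higher and 16 lower, where 6.67% and 25.2% of all genes were, and the median of all genes moved to -0.53. Of the protein-coding genes 74 of 119 were higher, and of the lncRNA genes 107 of 189. The median log2 difference was 1.89, against 0.01 over all genes. Of the 321 genes 160 (49.8%) lay between 1.5 and 2.5, as did 16.9% of all genes, and 29 lay above, up to 3.06 for 1700084D21Rik. The 10 spermatid markers had a median of 1.98 and the 10 late spermatid markers one of 2.76 in the same comparison.

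The lncRNA 1700027A15Rik (chr1:73016036-73025508), which starts 137 nt from Tnp1, the gene of transition protein 1, stood at 3112, 1466 and 1600 normalised counts in the CTRL Spc libraries and at 19090, 14464 and 17959 in CTRL RS. Its difference was 3.06 ± 0.42 (log2 ± SE, adjusted p = 5.04e-05). The lncRNA 1700084D21Rik (chr13:113136076-113144012) was less abundant, with 186, 79.3 and 72.6 in CTRL Spc and 1007, 660 and 1149 in CTRL RS, and rose by the same amount (3.06 ± 0.50, adjusted p = 0.000203). 1700080E11Rik (Nudt16l2), which codes for a Nudix hydrolase family protein, had 1761, 715 and 780 in CTRL Spc and 8623, 7424 and 9879 in CTRL RS (2.99 ± 0.56, adjusted p = 0.00048). In each of them the first CTRL Spc library was the highest of the 3, as it was for the late spermatid markers (0.79% of counts against 0.406% and 0.409%).

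The 10 genes that were lower in CTRL RS went the other way by as much. 1700006A11Rik (chr3:124400990-124426039), the gene that overlaps a known pachytene piRNA locus, had 6497, 6020 and 10743 normalised counts in CTRL Spc and 652, 1198 and 761 in CTRL RS (-3.16 ± 0.28, adjusted p = 2.47e-06). The lncRNA 1700047E10Rik fell from 186, 193 and 240 to 28.8, 27.2 and 22 (-2.98 ± 0.26, adjusted p = 2.26e-06). 1700024P16Rik (Fyb2), whose product is an adaptor protein of the FYB family, fell from 220, 465 and 449 to 66.4, 67.9 and 67.5 (-2.49 ± 0.30, adjusted p = 1.79e-05). 1700123I01Rik (Majin), whose product anchors telomeres to the nuclear envelope in meiosis, fell by 1.88 on the log2 scale. Its counts were 799, 915 and 941 in CTRL Spc and 222, 293 and 208 in CTRL RS. The remaining calls included 3 X-linked lncRNAs that are described further on. All of these were below their Spc values in every CTRL RS library.

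The main comparison asked how cKO round spermatids differed from CTRL round spermatids. Of the 321 genes, 156 (48.6%) were lower in cKO and 3 were higher, where 11% of all genes tested were lower and 15.9% were higher. The median log2 fold change was -1.43, against 0.16 over all genes. Of the lncRNA genes 94 of 189 (49.7%) were lower and of the protein-coding genes 56 of 119 (47.1%), with medians of -1.44 and -1.43, and 5 of the 12 pseudogenes were lower. The count did not rest on the genes that passed the rule through CTRL RS alone: 146 of the other 310 were lower, and 111 of the 260 genes that reached the threshold in all 4 groups. Genes that were lower had a shorter total exon length, with a median of 607 nt against 847 nt for the lncRNA genes and 1036 nt against 1920 nt for the protein-coding genes. This difference was not tested, and the same split was not made for all genes. With library sizes left unadjusted, 108 genes were lower and 9 higher, where 6.24% and 28.4% of all genes were, since the median of all genes then moved from 0.16 to 0.72 and that of the 1700-series genes from -1.43 to -0.88.

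**Figure D2:**
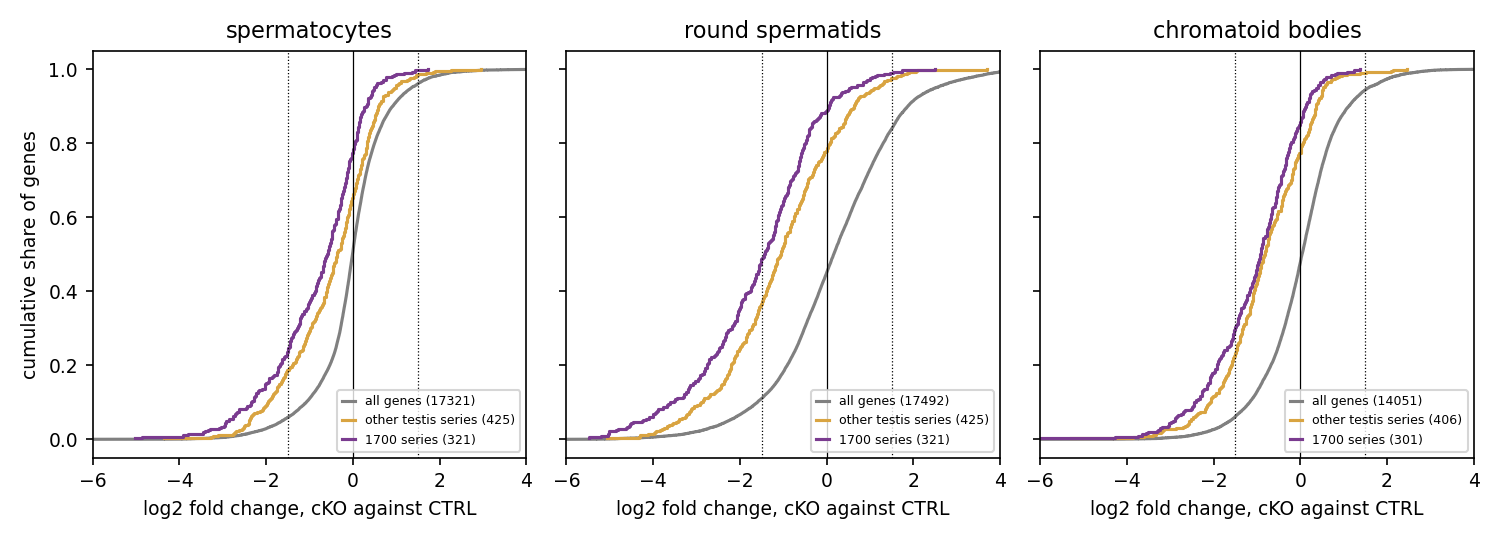
Cumulative share of genes (vertical axis) by log2 fold change, cKO against CTRL (horizontal axis), in spermatocytes, round spermatids and chromatoid bodies, for all genes (grey), the other RIKEN testis series (orange) and the 1700 series (purple). Dotted lines mark 1.5 in either direction; the 1700-series medians are -0.59, -1.43 and -0.93, left of the all-gene medians of -0.01, 0.16 and 0.04.

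Names of the other RIKEN testis clone series, such as 4933402N03Rik, had more decreases than increases: 157 of 425 genes were lower and 10 higher, with a median of -1.05. Of RIKEN names from other clone series, 30 of 345 were lower and 39 higher, with a median of 0.11. The difference between these lists was not tested.

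The largest decreases in RS came in genes of very different abundance. 1700008P02Rik (chr3:6615413-6620443), a protein-coding gene, had 2153, 1841 and 2319 normalised counts in CTRL RS and 56.1, 40.9 and 90.9 in cKO RS (-5.05 ± 0.27, adjusted p = 1.83e-06). The lncRNA 1700047L14Rik (chr5:108763842-108768918), which overlaps Rnf212 on the other strand, had 242, 216 and 214 in CTRL RS and 5.52, 5.71 and 8.66 in cKO RS (-5.03 ± 0.28, adjusted p = 2.14e-06). 1700027A15Rik had 513, 482 and 575 in cKO RS against the CTRL RS values given above (-5.02 ± 0.14, adjusted p = 1.55e-07). The protein-coding 1700012A03Rik (chr6:32050288-32059062) and the lncRNA 1700009J07Rik (chr10:77893420-77896111) had the largest decreases of the set, with log2 fold changes of -5.49 and -5.48. In none of these did any cKO library come near a CTRL library. 1700019O17Rik (Tex44), a testis-expressed gene of a single exon, had 7379, 6653 and 8369 in CTRL RS and 326, 284 and 352 in cKO RS (-4.53 ± 0.13, adjusted p = 1.65e-07). 1700080E11Rik (Nudt16l2) had 327, 279 and 303 in cKO RS (-4.82 ± 0.13, adjusted p = 1.62e-07), and 1700020A23Rik, a short protein-coding gene on chromosome 2, had 3448, 2819 and 3574 in CTRL and 133, 170 and 128 in cKO (-4.50 ± 0.16, adjusted p = 3.05e-07).

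**Figure D3:**
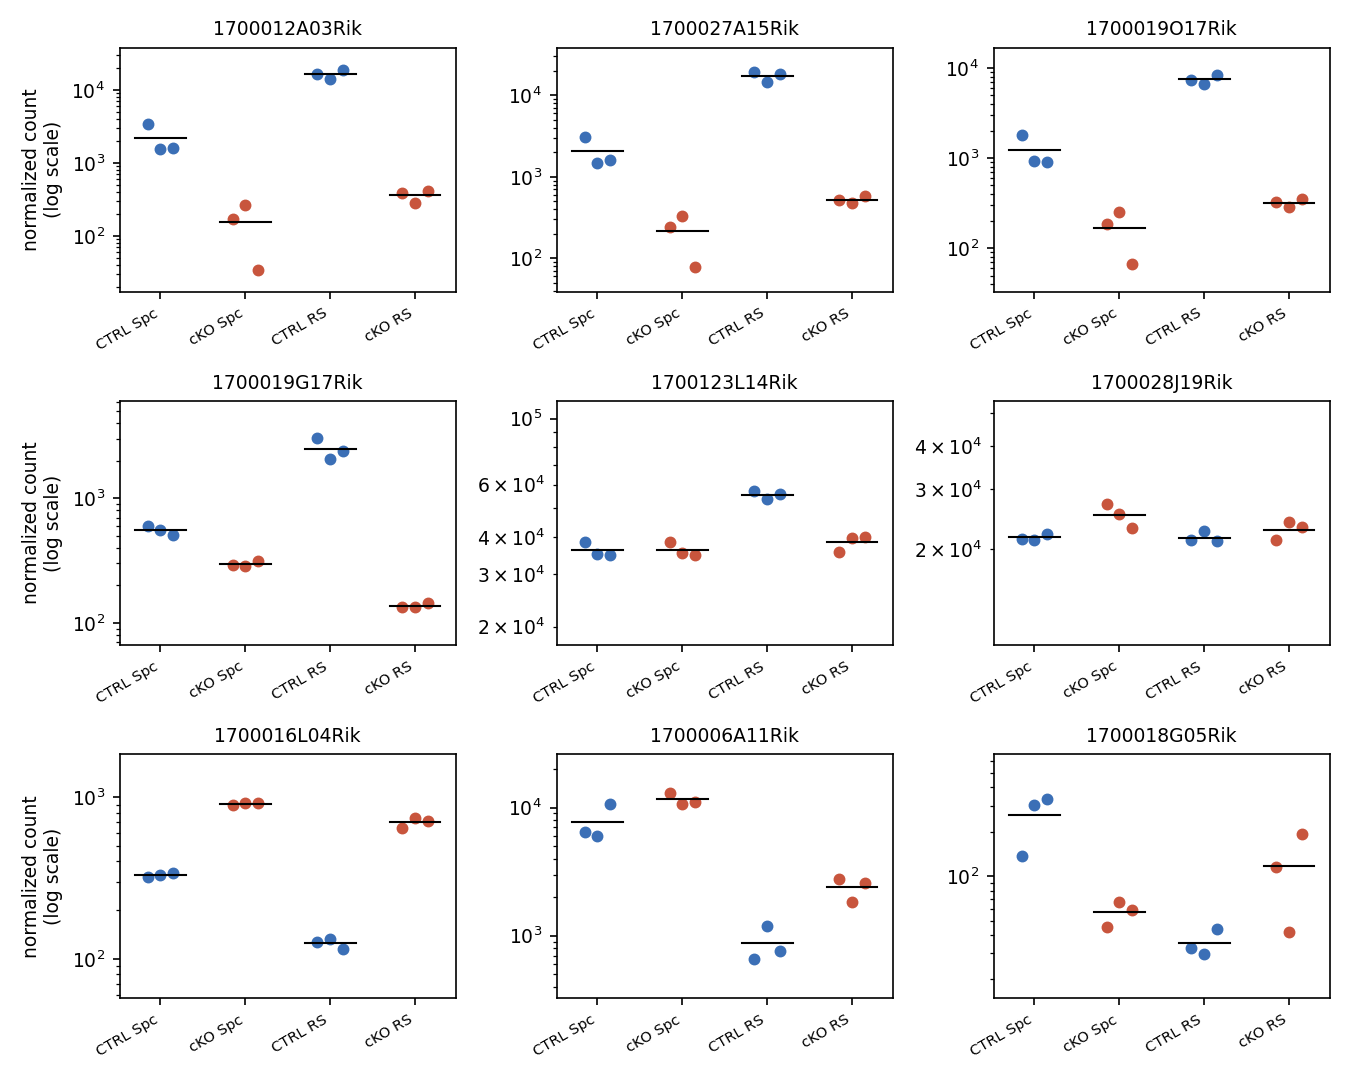
Normalised counts (logarithmic axis, scaled over the 12 libraries) of 9 of the 1700-series genes in each spermatocyte and round spermatid library. Points are libraries (blue CTRL, red cKO) and lines are group means; 1700012A03Rik lies at 14088 to 18917 in CTRL RS and 289 to 420 in cKO RS, while 1700028J19Rik stays between 21074 and 27016 throughout.

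Not all abundant 1700-series RNAs fell by this much. Levels can be compared between genes per kilobase of exon, and on that scale the highest genes over the CTRL libraries were 1700123L14Rik, 1700029F12Rik, 1700008K24Rik, 1700013G24Rik, 1700009N14Rik and 1700028J19Rik. Their CTRL RS levels ran from 18209 normalised counts per kb for 1700028J19Rik to 34210 for 1700009N14Rik, where the medians over the lncRNA and protein-coding genes were 1041 and 5389. 1700028J19Rik, a lncRNA, had 21234, 22588 and 21074 normalised counts in CTRL RS and 21222, 23927 and 23228 in cKO RS (0.09 ± 0.07, adjusted p = 0.275). 1700123L14Rik, a transcribed pseudogene that overlaps Tafa1 on the other strand, had 57295, 53620 and 55666 in CTRL RS and 35654, 39867 and 39967 in cKO RS (-0.52 ± 0.07, adjusted p = 0.000242). The lncRNA 1700008K24Rik and the protein-coding 1700029F12Rik were also lower, by 0.92 ± 0.11 and 1.12 ± 0.08, which is less than the fold asked for. These 4 genes had CTRL RS levels no more than 0.75 on the log2 scale above CTRL Spc. 1700009N14Rik and 1700013G24Rik, both protein-coding, were higher in CTRL RS than in CTRL Spc by 2.58 and 2.31. 1700009N14Rik had 44937, 39978 and 44811 in CTRL RS and 4467, 5185 and 4818 in cKO RS (-3.15 ± 0.09, adjusted p = 1.55e-07), and 1700013G24Rik had 34801, 31866 and 38524 against 5246, 6859 and 5848 (-2.54 ± 0.12, adjusted p = 8.37e-07).

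Chromatoid bodies were compared to ask whether the RNA of the granule differed in the same genes, in libraries that the count rule did not use. Of 301 genes tested, 90 (29.9%) were lower in cKO CB and 0 were higher, where 5.92% and 5.39% of all genes were lower and higher. At an adjusted p of 0.05 or less without the fold limit, 164 (54.5%) were lower and 3 (0.997%) higher, against 18.6% and 16.3% of all genes. The median log2 fold change was -0.93, against 0.04 over all genes. Protein-coding genes (36 of 119) and lncRNA genes (52 of 170) were lower in about the same share, and of the other testis series 94 of 406 were lower and 4 higher. Without the genes that met the rule in CTRL RS alone, 86 of 295 were lower.

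The CB decreases fell on the genes that CTRL round spermatids had gained, a split that rests on other libraries. Of 181 genes that were higher in CTRL RS than in CTRL Spc, 86 (47.5%) were lower in cKO CB, and of 114 genes that were called in neither direction 4 (3.51%) were lower. None of the 6 genes lower in CTRL RS was lower in cKO CB. Over all genes that met the same count rule the shares were 31.1% (708 of 2280) and 0.623% (56 of 8985). Of the 90 genes lower in CB, 87 (96.7%) were lower in RS too, libraries that share no sample with CB, as were 611 of 742 (82.3%) among all other genes, and no gene moved in opposite directions in CB and RS at an adjusted p of 0.05 or less. Across the 301 genes the CB and RS fold changes had a Spearman correlation of 0.84, and across all 13865 genes one of 0.74. Genes are not independent replicates, and late spermatid markers fell in both as well, from 0.171% to 0.43% of counts in CTRL CB to 0.0282% to 0.0398% in cKO CB.

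1700012A03Rik had 316, 283, 586 and 392 normalised counts in the CTRL CB libraries and 32.7, 23 and 29.6 in cKO CB (-3.75 ± 0.31, adjusted p = 3.28e-05). 1700034I23Rik (chr3:40900196-40902501), a protein-coding gene of a single exon that overlaps Abhd18 on the other strand, had 203, 208, 188 and 311 in CTRL CB and 40.8, 8.62 and 17.1 in cKO CB (-3.29 ± 0.37, adjusted p = 8.75e-05). 1700034E13Rik, a protein-coding gene on chromosome 18, had 160, 93.8, 196 and 210 against 35.9, 2.88 and 16 (-3.05 ± 0.45, adjusted p = 0.000367). The groups did not overlap in any of the 3. 1700019O17Rik (Tex44) had 160, 93.8, 185 and 283 against 19.6, 20.1 and 25.1 (-3.04 ± 0.38, adjusted p = 0.000166). 1700027A15Rik had 376, 273, 590 and 505 against 96.4, 57.5 and 45.6 (-2.71 ± 0.32, adjusted p = 0.000128). 1700008P02Rik, among the most reduced in RS, had only 29.5, 29.4, 43 and 36.8 in CTRL CB and 1.63, 2.88 and 1.14 in cKO CB (-4.28 ± 0.53, adjusted p = 0.000144).

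In spermatocytes, 63 of the 321 genes (19.6%) were lower in cKO and 1 was higher, where 5.09% of all genes were lower and 3.45% higher. The median log2 fold change was -0.59, against -0.01 over all genes. Of the 119 protein-coding genes 22 were lower, of the 189 lncRNA genes 38, of the other testis series 54 of 425 and of the other RIKEN names 10 of 346. Of the 63, 60 (95.2%) were lower in RS too, as were 414 of 818 (50.6%) among all other genes, and 49 in both RS and CB, while 159 genes were lower in none of the 3. Fold changes in Spc and RS, which come from different libraries, had a Spearman correlation of 0.90 over the 321 genes and 0.61 over all 16846 genes tested in both. The count changed with the libraries used: it was 20 without cKO Spc replicate 1, 33 without CTRL Spc replicate 1 and 36 without CTRL Spc replicate 3. The share of all genes called lower moved with it, to 2%, 4.11% and 2.95%.

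The genes named for the largest decreases in Spc were all higher in CTRL RS than in CTRL Spc. 1700008P02Rik had 421, 180 and 226 normalised counts in CTRL Spc and 23.7, 36.8 and 3.4 in cKO Spc (-3.81 ± 0.71, adjusted p = 0.011). The lncRNA 1700034G24Rik (chr5:112582936-112589996) had 417, 129 and 142 against 22.5, 43.4 and 4.26 (-3.40 ± 0.79, adjusted p = 0.0218). In both genes the first CTRL library was the highest and the third cKO library the lowest, the order also seen in the late spermatid marker share, which was 0.79% in that CTRL library and 0.0468% in that cKO library. The same order held for 1700012A03Rik, with 3393, 1570 and 1611 in CTRL Spc and 170, 264 and 34.9 in cKO Spc (-3.92 ± 0.69, adjusted p = 0.00925). Leaving out cKO Spc replicate 1 took the adjusted p of all 3 above 0.05, with fold changes of -3.87, -3.36 and -3.96 for 1700008P02Rik, 1700034G24Rik and 1700012A03Rik.

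Between cKO round spermatids and cKO spermatocytes only 4 genes were called higher and 7 lower, where 3.77% and 3.53% of all genes were. The median difference was 0.84 in cKO and 1.89 in CTRL, and the 2 comparisons share no library. Without cKO Spc replicate 2, the library with the most late spermatid RNA of its group, 60 genes were called higher in cKO RS, as were 6.83% of all genes. 1700008P02Rik and 1700047L14Rik were among the 4 that were higher (1.59 ± 0.57, adjusted p = 0.0385, and 1.70 ± 0.64, adjusted p = 0.0466), and both calls were lost without any of several single libraries, among them cKO Spc replicate 1 (1.67 and 1.81) and cKO Spc replicate 3 (1.04 and 1.06). 1700006A11Rik fell in cKO as in CTRL, by 2.27 ± 0.27 on the log2 scale.

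The interaction of genotype and cell type tested whether the cKO effect differed between RS and Spc. At an adjusted p of 0.05 or less it was negative, a larger decrease or smaller increase in RS, in 157 of the 321 genes and positive in 6, where 21% of all genes were negative and 20.4% positive. The median was -0.95, against -0.07 over all genes. The split depended on the scaling: with library sizes left unadjusted 16 genes were negative and 27 positive, where 2.98% and 43.9% of all genes were, as the median of all genes moved to 0.57 and that of the 1700-series genes to -0.31. The negative count was 101 without cKO RS replicate 3 and 222 without cKO Spc replicate 3, where 15.65% and 23.85% of all genes were negative. The most negative gene was 1700019G17Rik (Nat8f4, chr6:85899050-85909315), an N-acetyltransferase family gene. It had 604, 558 and 509 normalised counts in CTRL Spc, 292, 284 and 312 in cKO Spc, 3030, 2069 and 2404 in CTRL RS and 134, 133 and 145 in cKO RS. It thus rose from Spc to RS in CTRL (2.17 ± 0.14) and fell in cKO (-1.11 ± 0.14), with an interaction of -3.27 ± 0.20 (adjusted p = 1.45e-05). The protein-coding 1700001O22Rik fell by 3.28 ± 0.12 in RS and by 1.30 ± 0.27 in Spc (interaction -2.10 ± 0.32, adjusted p = 0.000917).

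The positive interactions were led by 3 X-linked lncRNA genes. 1700018G05Rik (chrX:102928372-102929107) had 138, 305 and 335 normalised counts in CTRL Spc, 45, 67 and 58.7 in cKO Spc, 32.6, 29.9 and 44.1 in CTRL RS and 116, 41.9 and 192 in cKO RS. It was lower in cKO Spc (-2.28 ± 0.37, adjusted p = 0.00729) and higher in cKO RS (1.73 ± 0.52, adjusted p = 0.0168), the only gene called in opposite directions, with an interaction of 3.90 ± 0.70 (adjusted p = 0.00194). The RS groups overlapped in 1 library, and the RS call was lost without cKO RS replicate 3 (1.18), CTRL RS replicate 1 (1.66) or CTRL RS replicate 2 (1.61). 1700011M02Rik (chrX:102908905-102909651), in the same part of the chromosome and overlapping Dmrtc1a on the other strand, had 126, 280 and 330 in CTRL Spc, 69.8, 71.7 and 64.7 in cKO Spc, 45.1, 65.2 and 64.8 in CTRL RS and 143, 51.4 and 191 in cKO RS (interaction 2.98 ± 0.63, adjusted p = 0.00422). 1700019B21Rik (Tslrn1, chrX:62510539-62527011), named here after its values were seen, had 108, 191 and 226 in CTRL Spc, 30.8, 37.7 and 34.0 in cKO Spc, 45.1, 42.1 and 46.8 in CTRL RS and 120, 40.9 and 77.9 in cKO RS (interaction 3.18 ± 0.53, adjusted p = 0.00141). All 3 were highest in CTRL Spc, and within cKO RS the second library was the lowest in each.

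Sertoli cell markers moved in the same way. The 12 markers, among them Sox9, Wt1 and Amh, took 0.04%, 0.113% and 0.0938% of counts in CTRL Spc, 0.0207%, 0.0266% and 0.0337% in cKO Spc, 0.00671%, 0.00714% and 0.00537% in CTRL RS and 0.0243%, 0.0134% and 0.0348% in cKO RS. In Spc 10 of 12 were lower in cKO at an adjusted p of 0.05 or less and in RS 10 of 11 were higher. Of all genes 2359 of 17321 were lower in Spc and 7008 of 17492 higher in RS at that adjusted p. The first CTRL Spc library and the second cKO RS library were the lowest of their groups for the markers and for each of the 3 lncRNAs. The same held for 1700024P16Rik (Fyb2). The part of Sertoli cell RNA in the results for these genes was not tested.

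**Figure D4:**
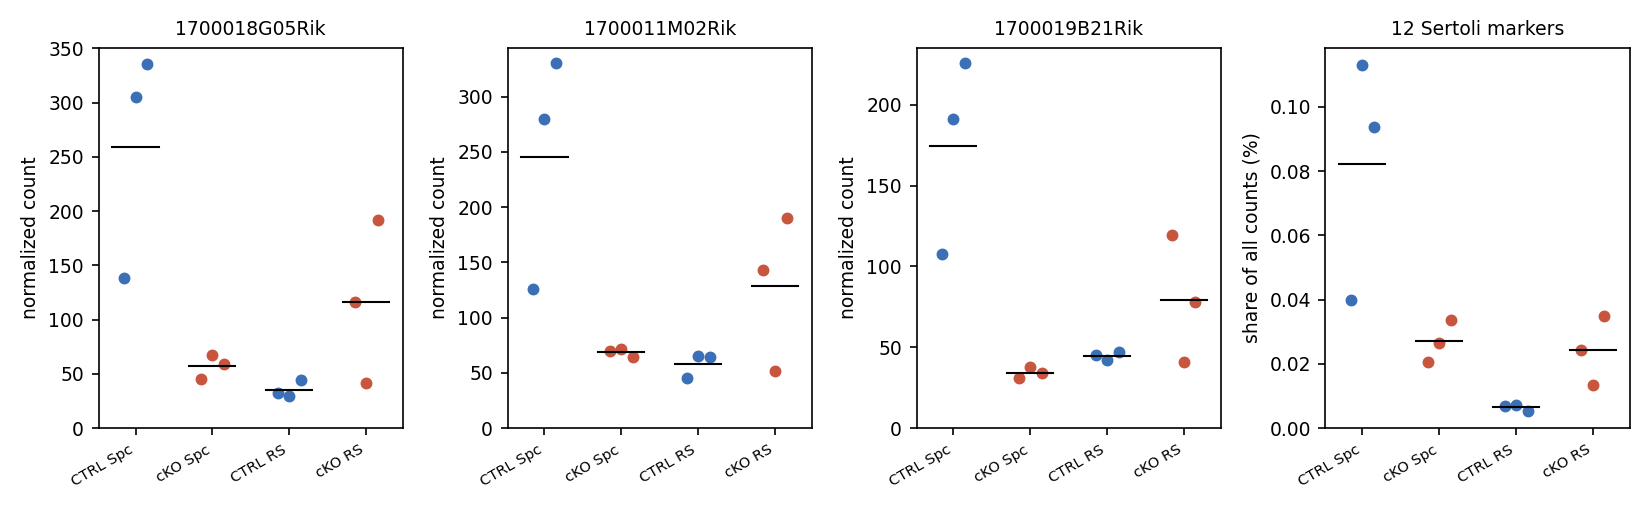
Normalised counts (linear axes, scaled over the 12 libraries) of 3 X-linked lncRNA genes, and the summed share of all counts (%) of 12 Sertoli cell markers, in each library. Points are libraries (blue CTRL, red cKO) and lines are group means; 1700018G05Rik runs from 138 to 335 in CTRL Spc and from 29.9 to 44.1 in CTRL RS, and the markers from 0.04% to 0.113% and from 0.00537% to 0.00714%.

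Beside 1700018G05Rik, 2 genes were higher in cKO RS, both lncRNA genes, and the count of 3 fell to 1 without CTRL RS replicate 1. 1700016L04Rik (chr10:14705609-14759019), which starts 67 nt from Vta1, a gene of the multivesicular body pathway, and overlaps Gje1, had 128, 132 and 114 normalised counts in CTRL RS and 645, 742 and 713 in cKO RS (2.50 ± 0.15, adjusted p = 2.65e-06). In Spc it had 320, 329 and 340 in CTRL and 894, 922 and 916 in cKO (1.37 ± 0.12, adjusted p = 0.000967), a difference under the fold limit, and in CB the groups overlapped (0.12 ± 0.25, adjusted p = 0.739). Vta1 itself rose in RS by 1.47 (adjusted p = 8.8e-05), from 243, 288 and 305 to 834, 643 and 823. 1700012D14Rik (chr7:111117673-111122675) was the only gene called higher in Spc, with 126, 93.1 and 98.2 in CTRL and 414, 374 and 353 in cKO (1.74 ± 0.20, adjusted p = 0.00233). Its RS values were 97.7, 119 and 131 in CTRL and 325, 375 and 293 in cKO (1.52 ± 0.19, adjusted p = 0.000204), close to the fold limit, under which they came without cKO RS replicate 2 (1.46) or CTRL RS replicate 1 (1.40). 1700006A11Rik, with 2779, 1835 and 2565 in cKO RS against 652, 1198 and 761 in CTRL RS, had a log2 fold change of 1.47 ± 0.24 (adjusted p = 0.000849) and missed the fold limit. It passed that limit without cKO RS replicate 2 (1.66) or CTRL RS replicate 2 (1.76). Its CB values overlapped (-0.51 ± 0.24, adjusted p = 0.118). The 12 spermatocyte markers took 0.104% to 0.111% of counts in CTRL RS and 0.156% to 0.171% in cKO RS. At an adjusted p of 0.05 or less 6 of them were higher and 3 lower. At the same adjusted p 13 of 14 macrophage markers (0.0368% to 0.0435% and 0.04% to 0.0565%) and 7 of 7 Leydig cell markers tested (0.000706% to 0.0008% and 0.00394% to 0.042%) were higher in cKO RS too. So were 6 of 8 spermatogonial markers (0.00298% to 0.00386% and 0.00844% to 0.0137%) and 4 of 5 erythroid markers (0.00158% to 0.00184% and 0.0072% to 0.0277%). Of 6 peritubular myoid markers 1 was higher and 2 were lower (0.0283% to 0.0329% and 0.0055% to 0.00751%). Of 5 endothelial markers 0 were higher and 2 lower (0.00163% to 0.00258% and 0.000916% to 0.00106%). Of all 17492 genes tested in RS, 7008 were higher and 5726 lower at that adjusted p. In Spc, 11 of 14 macrophage markers were higher and 2 lower in cKO, although their summed share was lower (0.0132% to 0.0202% in CTRL and 0.0115% to 0.0124% in cKO), and 3 of 8 Leydig cell markers were higher (0.0134% to 0.0482% and 0.0661% to 0.141%). Of all 17321 genes tested in Spc, 2396 were higher and 2359 lower at that adjusted p. The part of the RNA of these cell types in the increases was not tested.

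Many lncRNA genes of spermatids start beside a coding gene, and 34 of the 1700-series lncRNA genes had the start of a protein-coding gene on the other strand within 1000 nt. In RS both genes were tested in 30 pairs, and 20 pairs had fold changes of the same sign. The lncRNA was lower in 10 pairs, the coding gene in 8 and both in 6, with medians of -1.06 and -0.48. Of all genes 11% were lower in RS, and shares of equal sign were not computed for pairs of other genes. In CB 23 of 28 pairs had the same sign, and in Spc 18 of 30. 1700027A15Rik fell with Tnp1, whose log2 fold change in RS was -4.67 (adjusted p = 1.1e-06) and whose counts were 129493, 83078 and 133810 in CTRL RS and 4607, 3629 and 5260 in cKO RS. Tnp1 was also one of the late spermatid markers. 1700029B22Rik and 4933402N03Rik, which start 156 nt apart, fell by 4.56 and 3.94. 1700072B07Rik fell with Tbc1d21, a spermatid gene for a sperm midpiece protein (-2.32 and -2.25), and 1700072I22Rik with Lyzl6, which codes for a sperm lysozyme-like protein (-2.28 and -1.71). In other pairs the genes diverged: 1700084E18Rik was lower (-1.55, adjusted p = 0.000158) and Lrrc8a, a volume-regulated anion channel gene, was at 1.07 (adjusted p = 0.00011). 1700008J07Rik was at -1.28 and the chromatin remodeller gene Srcap at 1.36, and 1700001G11Rik at -0.70 and Trim35 at 1.60. The last 2 pairs overlap each other at their starts. Reads were counted by strand from stranded libraries, so reads of partners on opposite strands were assigned separately. Of the 189 lncRNA genes 48 overlapped a protein-coding gene on the other strand.

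**Figure D5:**
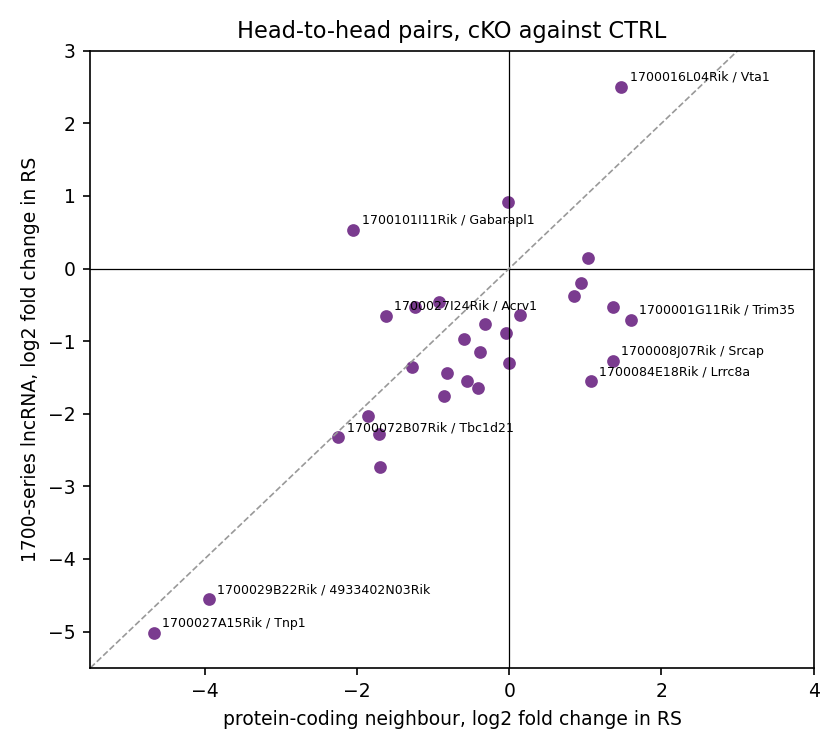
Log2 fold change in round spermatids, cKO against CTRL, of 1700-series lncRNA genes (vertical axis) and of the protein-coding gene that starts within 1000 nt on the other strand (horizontal axis). Each point is 1 of 30 pairs and the dashed line marks equal change; 20 pairs lie in the quadrants of equal sign, from -5.02 and -4.67 for 1700027A15Rik and Tnp1 to 2.50 and 1.47 for 1700016L04Rik and Vta1.

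Of the 321 names, 41 have since been given another symbol in RefSeq, and genes among them were picked after their values were seen, so the groups that follow are a description. Among histone genes of spermatids, 1700024P04Rik (H2bl1), a histone H2B variant gene, had 7704, 6174 and 9178 normalised counts in CTRL RS and 392, 442 and 366 in cKO RS (-4.25 ± 0.16), and 83.6, 81.8, 102 and 183 in CTRL CB against 4.9, 5.75 and 13.7 in cKO CB (-3.65 ± 0.45). 1700012L04Rik (H2al1m), a histone H2A-like gene, had 762, 615 and 947 in CTRL RS and 122, 104 and 77.1 in cKO RS (-2.93 ± 0.23), and was at -1.10 in CB (adjusted p = 0.113). It belongs to a multicopy family on the X chromosome, so its count may hold reads of other copies. Among genes of the acrosome and of fertilisation, 1700026L06Rik (Spaca9) had 14689, 12488 and 16198 in CTRL RS and 2177, 2402 and 1797 in cKO RS (-2.76 ± 0.14), and 1700015E13Rik (Spata46) and 1700034O15Rik (Llcfc1), whose product is needed for gamete fusion, were at -2.17 and -2.33 in RS and -1.61 and -1.19 in CB. Among genes of the flagellum, 1700006E09Rik (Cfap97d1) was at -2.54 ± 0.15 in RS, while 1700101E01Rik (Cfap77), 1700019L03Rik (Cfap157), 1700003M02Rik (Cfap206), 1700007G11Rik (Cfap299) and 1700026D08Rik (Cfap161) were at -1.39, -1.11, -0.82, -0.60 and -0.30, all with an adjusted p of 0.05 or less and under the fold limit. In CTRL, RS levels were above Spc levels by 2.11 for Cfap97d1, 1.89 for Cfap77, 1.43 for Cfap157, 0.82 for Cfap206, 0.41 for Cfap299 and 0.42 for Cfap161 on the log2 scale. In CB, Cfap97d1 was lower (-1.89, adjusted p = 0.00043) and Cfap206 was at -0.92 (adjusted p = 0.00699), while Cfap157, Cfap77, Cfap161 and Cfap299 were at -0.44, -0.35, -0.33 and 0.23 and not past an adjusted p of 0.05. Majin, the meiotic gene that fell from Spc to RS in CTRL, was at 0.69 ± 0.19 in cKO RS (adjusted p = 0.0105).

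Another 1700-series name marks a piRNA locus in addition to 1700006A11Rik: pi-1700016M24Rik, whose host gene is not among the 321. Pachytene piRNA loci give long precursor transcripts that are cut into piRNAs. Precursor reads over pi-1700006A11Rik (chr3:124398082-124425991) were 12649, 10237 and 16402 normalised counts in CTRL Spc and 18805, 15246 and 16124 in cKO Spc (0.35, adjusted p = 0.156). In RS they were 1166, 1802 and 1335 in CTRL and 2472, 2167 and 2792 in cKO (0.79, adjusted p = 0.00425), with no overlap, and in CB the difference was -0.33 (adjusted p = 0.196). Small RNA reads of the same locus were lower in cKO by 0.31 in Spc and 0.41 in RS (adjusted p = 0.000386 and 0.000348), with 26069, 25151 and 25947 in CTRL RS and 20646, 18434 and 19066 in cKO RS. Precursor reads over pi-1700016M24Rik (chr15:74606028-74636770) were 66331, 62333 and 61979 in CTRL Spc and 144140, 122543 and 128458 in cKO Spc (1.05, adjusted p = 0.000478). In RS they were 55316, 52262 and 55430 against 59972, 93069 and 91099 (0.58, adjusted p = 0.0575). Its small RNA reads were lower in cKO Spc (-0.58, adjusted p = 0.0043) and at 0.01 in RS (adjusted p = 0.912). The labels list 5 small RNA samples of each genotype in Spc, while the methods describe the samples of the RNA libraries, 3 of each, so the p-values for Spc small RNA may be too small. None of these reached 1.5 in size, and with library sizes left unadjusted the small RNA differences of pi-1700006A11Rik came to -0.034 in Spc and -0.11 in RS and that of pi-1700016M24Rik in Spc to -0.31, all 3 no longer past the threshold. Among all piRNA loci, small RNA of 151 of 214 in Spc and 164 of 214 in RS passed an adjusted p of 0.05, in either direction. Precursors did so at 74 of 214 loci in Spc, 115 of 213 in RS and 32 of 214 in CB.

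At the edge of the rule stood genes for which the third highest count among the 12 libraries was close to 100. Just outside were 1700112E06Rik with 80, 1700112H15Rik with 96 and 1700044K03Rik with 99, and just inside were 1700024F13Rik with 107, 1700092C02Rik with 109 and 1700048M11Rik with 110. Of the 3 inside, 1700024F13Rik and 1700048M11Rik reached 100 counts in CTRL RS alone.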

How the data were processed

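The authors deposited raw read counts per gene and transposable element for each Spc, RS and CB library, made with STAR (2.7.1a in the submitters' processing notes, another version in the methods) and TEtranscripts, counting by strand, on the mm10 build. The authors also deposited estimated counts per transcript and per piRNA locus, made with featureCounts (2.0.1 per the file headers) by sharing a read among the features it fits, and small RNA reads were first trimmed with cutadapt 2.8 and aligned with HISAT2 2.1.0. Estimated counts were rounded. The counts were tested as deposited with edgeR 4.0.16 (R 4.3.3): TMM scaling, and the two-sided quasi-likelihood test with p-values adjusted over all rows by Benjamini-Hochberg. Gene rows needed at least 10 counts in at least 3 libraries. Rows of piRNA precursors needed at least 10 counts over all libraries, and small RNA rows of piRNA loci at least 1 in every library. Genotypes were compared within Spc, RS and CB, and RS with Spc and the interaction over the 12 Spc and RS libraries. Levels are counts divided by the scaled library size, for Spc and RS over the 12 libraries. Errors are SE of log2 fold changes. The fits were tested on simulated data. Genes were named by a rule: the largest called changes with a mean of at least 100 counts, the 6 highest per kb, the extremes of the interaction, opposite calls, piRNA loci and the edge of the count rule. The members and all lists were chosen with earlier results of these data known. Column names of the CB and small RNA tables gave the group, and their numbers could not be matched to the labels' replicates. Alternatives were other scaling, no filter, DESeq2 1.42.0, transcript counts, replicate blocks and each library left out. Results on 5 Spc small RNA libraries per group treat these as separate samples, as the labels list them, although the methods describe 3.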

Additional observations from a re-analysis of the deposited data

Results flagged for a closer look

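The genotype effect differed between RS and Spc, by the interaction term of edgeR's quasi-likelihood test, in 157 genes with a negative and 6 with a positive term (adjusted p of 0.05 or less). Among the genes named by rule the negative terms, as log2 values, were -3.27 for 1700019G17Rik, -2.10 for 1700001O22Rik, -1.90 for 1700020A23Rik, -1.79 for 1700027A15Rik, -1.68 for 1700019O17Rik, -1.55 for 1700034I23Rik and -1.52 for 1700009N14Rik. Smaller negative terms were -1.30 for 1700013G24Rik, -1.08 for 1700092C02Rik, -1.06 for 1700008K24Rik, -0.95 for 1700029F12Rik and -0.53 for 1700123L14Rik. The positive terms were 3.90 for 1700018G05Rik, 2.98 for 1700011M02Rik, 1.85 for 1700024P16Rik and 1.02 for 1700016L04Rik. The terms of 1700013G24Rik, 1700019O17Rik, 1700020A23Rik, 1700027A15Rik and 1700092C02Rik lost the threshold when any of several single libraries was left out, among them cKO Spc replicate 2 (-1.05, -1.25, -0.99, -1.32 and -0.90).

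In 4 genes 1 of the 4 CTRL CB libraries stood apart from the other 3 by more than Dixon's 95% limit, which chance passes in about 1 of 20 groups. The lowest library had 21.1 normalised counts for 1700034G24Rik. The highest had 311 for 1700034I23Rik, 1299 for 1700008K24Rik and 345 for 1700028J19Rik.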

How the results depend on the processing

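With library sizes in place of TMM scaling, 9 genes were higher in cKO RS, 109 were higher and 16 lower in CTRL RS than in CTRL Spc, 9 were higher in cKO RS than in cKO Spc (6.67%, 25.2% and 4.67% of all genes in the last 3), and the interaction was positive in 27 and negative in 16, which turned 1700123L14Rik to 0.11 and 1700028J19Rik to 0.50. That scaling also gave, for pi-1700006A11Rik small RNAs, -0.11 in RS and -0.034 in Spc, for pi-1700016M24Rik small RNAs -0.31 in Spc, and for its RS precursor 0.87, where DESeq2 gave 0.50 and passed the threshold. Transcript counts summed per gene, which covered 265 of the 321 genes in Spc and 266 in RS, gave 0 genes higher in cKO Spc, 1 higher in cKO RS, 6 lower in CTRL RS than in CTRL Spc and 2 positive interactions (3.46%, 16.4%, 16% and 20.6% of all genes). Genes with a mean of at least 100 gave 2 higher in cKO RS than in cKO Spc. DESeq2 gave 77 genes lower in Spc, 160 in RS and 87 in CB, where 5.63%, 11.7% and 5.62% of all genes were lower.

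Leaving out 1 library at a time gave 20 to 87 genes lower and 1 to 2 higher in Spc, 144 to 159 and 1 to 4 in RS, 79 to 100 and 0 to 1 in CB, 179 to 193 higher and 9 to 11 lower between CTRL RS and Spc, 2 to 60 and 6 to 9 between cKO RS and Spc, and 101 to 222 negative and 6 to 9 positive interactions. Of all genes 2% to 6.79% were then lower in Spc, 10.3% to 12.2% in RS and 4.98% to 7.1% in CB. The share higher was 15.8% to 19.5% between CTRL RS and Spc and 3.32% to 6.83% between cKO RS and Spc. Interactions were negative in 15.65% to 25% of all genes. The pi-1700006A11Rik precursor ran from 0.20 to 0.51 in Spc, and the pi-1700016M24Rik precursor from 0.48 to 0.76 in RS. Of the values of single named genes, 2364 stayed on their side of the threshold, 89 lost it, 44 passed it and 2 turned in sign; the cause was not tested.

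Samples share only a number, and deviations of same-numbered samples correlated from -0.18 to 0.56. With the replicate number as a block, 63 genes were lower in Spc, 156 in RS and 152 had a negative interaction, 2 were higher in cKO RS than in cKO Spc, and the Spc precursor of pi-1700006A11Rik was at 0.37 and past the threshold. The shares of all genes in these 4 calls were 4.98%, 11.1%, 19.4% and 3.715%. A block of number within genotype, added after seeing the data, gave 176 negative interactions, where 20.6% of all genes were negative. No paired analysis was run for CB because the numbers in its column names do not match the replicate numbers of the labels. Some CTRL column names of CB carry the letters MVH, which no cKO column name has, and their meaning is not given. Depth limits CB most, with 301 of the 321 genes tested.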
